A study of Mus musculus with 4 samples.

Results

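The globin genes of the mouse were followed in RNA from the face of the embryo. They comprised 7 genes, taken by name from 43346 gene entries: the embryonic Hba-x, Hbb-y and Hbb-bh1, and the adult Hba-a1, Hba-a2, Hbb-bs and Hbb-bt. All 7 were found and all 7 passed a minimum of 5 CPM (counts scaled to library size) in every library.

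Hemoglobin is built from alpha-type and beta-type globin chains, each holding a heme group that binds oxygen. In the mouse, the first red cells arise in the yolk sac and circulate as large nucleated primitive erythrocytes that carry embryonic chains and, as they mature, adult alpha chains, whereas definitive red cells, made later by the fetal liver, carry adult chains. The alpha-type and beta-type genes lie in separate clusters, in which the embryonic genes precede the adult ones in the direction of transcription, and their switching is a classic case of gene control in development. The developing face is no site of blood formation, and globin RNA is a familiar trace of circulating blood in dissected embryonic tissue.

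The samples were the lateral nasal process (LNP), the medial nasal process (MNP), the maxillary process (Mx) and the mandibular process (Md), the paired swellings that build the face, dissected fresh from wild-type embryos at e11.5 (the embryonic day) and described as mixed in cell type. Each process was represented by 1 library, with no statement of strain, of how many embryos it came from or of any removal of blood, so the processes were compared without replicates and no p-value is given. The tissue name of the MNP library carries the abbreviation of the lateral process, and its title was followed. Of 8 regional genes read as a check, Hand2 and Pax7 lay where the titles put them. Hand2, a transcription factor gene of the lower jaw, had 102.9 CPM in the Md library and at most 1.32 CPM elsewhere. Pax7, a gene of the lateral nose, had 112.6 CPM in the LNP library and 21.1 CPM in the MNP library. Alx1, at 266.6 and 265.8 CPM, and Alx4, at 300.1 and 278.2 CPM, hardly separated the LNP and MNP libraries, whereas Pou3f3 did, at 23.5 and 145 CPM. Total counts were 16163874, 13216161, 15385124 and 13680302 in the LNP, MNP, Mx and Md libraries.

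The near-identical adult copies set a first limit on what can be read from the counts. The coding sequences of Hba-a1 and Hba-a2 differ at 1 of 429 bases and those of Hbb-bs and Hbb-bt at 1 of 444 bases in the reference genome. The stretches of 50 bases, the length of a read, that hold the difference are shown from the GRCm38 build with the differing base in capitals. They lie within the coding sequence at chr11:32284318-32284367 (Hba-a1, plus strand), chr11:32297135-32297184 (Hba-a2, plus strand), chr7:103826668-103826717 (Hbb-bs, minus strand) and chr7:103812659-103812708 (Hbb-bt, minus strand).
Hba-a1: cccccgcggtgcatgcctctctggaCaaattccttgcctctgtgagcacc
Hba-a2: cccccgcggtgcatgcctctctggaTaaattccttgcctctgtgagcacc
Hbb-bs: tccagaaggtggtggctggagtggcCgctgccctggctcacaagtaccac
Hbb-bt: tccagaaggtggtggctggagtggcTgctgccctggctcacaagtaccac

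Counted from the A of the start codon, the substitution is C381T between Hba-a1 and Hba-a2 and C417T between Hbb-bs and Hbb-bt. Windows were taken from a GENCODE M21 transcript of each gene, whereas the counts were made on GENCODE M4, whose transcripts were not analysed here. Of the 505 windows of 50 bases in the Hba-a2 transcript, 439 (86.9%) also occur in Hba-a1, and 50 of its 66 own windows are those that span this base. For Hba-a1, 439 of 650 windows (67.5%) are shared, and 161 of its 211 own windows lie upstream of the differing base in a longer annotated start. Hbb-bs shares 381 of 579 windows (65.8%) and Hbb-bt the same 381 of 654 (58.3%), which leaves them 198 and 273 windows of their own. Hba-x, Hbb-y and Hbb-bh1 share no window with another gene, so the embryonic genes are counted from their own reads alone. The base that these embryos carry at either position was not analysed here, and the division of counts between Hba-a1 and Hba-a2 is uncertain for that reason.

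The software that made the counts gives its own error for this division. The posterior SD, the spread of the estimate over possible assignments of the shared reads, was 0 counts for each of the 3 embryonic genes. It was 40.3 to 52.4 counts for either adult alpha-type gene, which is 10.3 to 14.9% of the Hba-a2 count and 0.225 to 0.430% of the Hba-a1 count. For the adult beta-type pair it was 15.9 to 21.8 counts, or 1.06 to 1.54% of Hbb-bs and 2.26 to 2.88% of Hbb-bt. Sums over each pair carry no such error and were used for the shares and ratios between embryonic and adult genes, while the order of levels ranks the copies singly.

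Among the embryonic genes, Hbb-y led. It encodes the epsilon-y chain, the chief beta-type chain of primitive red cells, and lies at chr7:103851749-103853216 on the minus strand. Hbb-y reached 4074, 2476, 3490 and 2780 TPM (a transcript level corrected for length) in the LNP, MNP, Mx and Md libraries. It ranked 2 or 3 among all protein-coding genes in each library. It was the most abundant globin in every library, with 45.9 to 47.6% of the summed globin TPM.

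Hba-x encodes zeta globin, the embryonic alpha-type chain, and lies first in its cluster at chr11:32276400-32278116 on the plus strand. Its level was 843, 557, 779 and 644 TPM in the LNP, MNP, Mx and Md libraries. Hbb-bh1, at chr7:103841637-103843164 on the minus strand, encodes the beta-H1 chain, the other embryonic beta-type chain. Hbb-bh1 stood at 748, 488, 649 and 476 TPM in the same order of processes, so that Hbb-y exceeded it 5.45-fold, 5.07-fold, 5.38-fold and 5.84-fold on the TPM scale. In the mouse, Hbb-bh1 is known to lead in the youngest primitive red cells and Hbb-y in older ones, and Hbb-y was the higher of the pair in all 4 libraries.

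**Figure D1:**
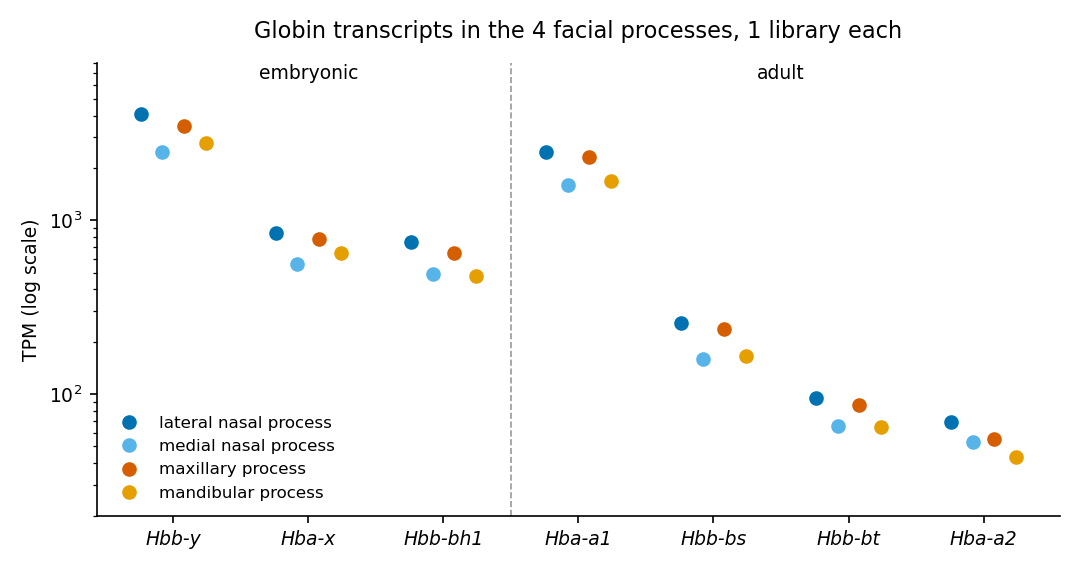
Level of each globin gene in TPM (log scale) in the 4 libraries, 1 point per library, with the embryonic genes left of the dashed line and the adult genes right of it. Hbb-y and Hba-a1 stand at 1592 TPM or more in every library, and the LNP and Mx points lie above the MNP and Md points for each gene.

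The adult genes fell into a high alpha-type gene and low beta-type genes. Hba-a1, an adult alpha-globin gene at chr11:32283511-32284465, was listed at 2471, 1592, 2312 and 1681 TPM in the LNP, MNP, Mx and Md libraries, and ranked 4 to 8 among protein-coding genes. Hba-a2, the second adult alpha-globin gene at chr11:32296489-32297298, was listed at 69.5, 52.9, 54.9 and 43.3 TPM. The ratio of their counts, 33.1 to 48.1, depends on the stretches that tell the copies apart, which were few in the GENCODE M21 transcripts. The sum of both genes, which depends little on those stretches, came to 2541, 1645, 2367 and 1724 TPM, or 3.01, 2.95, 3.04 and 2.68 times the level of Hba-x.

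The adult beta-globin genes were much lower. Hbb-bs, at chr7:103826534-103828096, had 256, 158, 238 and 165 TPM in the LNP, MNP, Mx and Md libraries. Hbb-bt, at chr7:103812524-103813996, had 94.9, 65.9, 86.7 and 64.6 TPM. Adult alpha-type transcripts thus exceeded adult beta-type transcripts 7.24-fold, 7.33-fold, 7.30-fold and 7.50-fold on the TPM scale. Hbb-bt held 32.3%, 34.9%, 31.3% and 33.3% of the adult beta-type counts, and the 95% intervals of these shares overlap (exact Clopper-Pearson, as for all shares here, covering counting error only).

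All alpha-type genes together reached 0.654, 0.691, 0.705 and 0.679 of the beta-type level on the TPM scale. With adult beta-type genes low, embryonic chains made up 93.7%, 93.4%, 93.1% and 93.8% of the beta-type counts in the LNP, MNP, Mx and Md libraries. For the alpha-type genes the balance was the reverse, with Hba-x at 31.8%, 33.5%, 31.6% and 35.2% of the counts. The order of the levels was therefore not embryonic before adult as a class: in TPM it ran Hbb-y, Hba-a1, Hba-x, Hbb-bh1, Hbb-bs, Hbb-bt and Hba-a2 in all 4 libraries. Between neighbours, the ranges over the 4 libraries overlapped for Hba-x and Hbb-bh1 and for Hbb-bt and Hba-a2, and for no other pair.

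**Figure D2:**
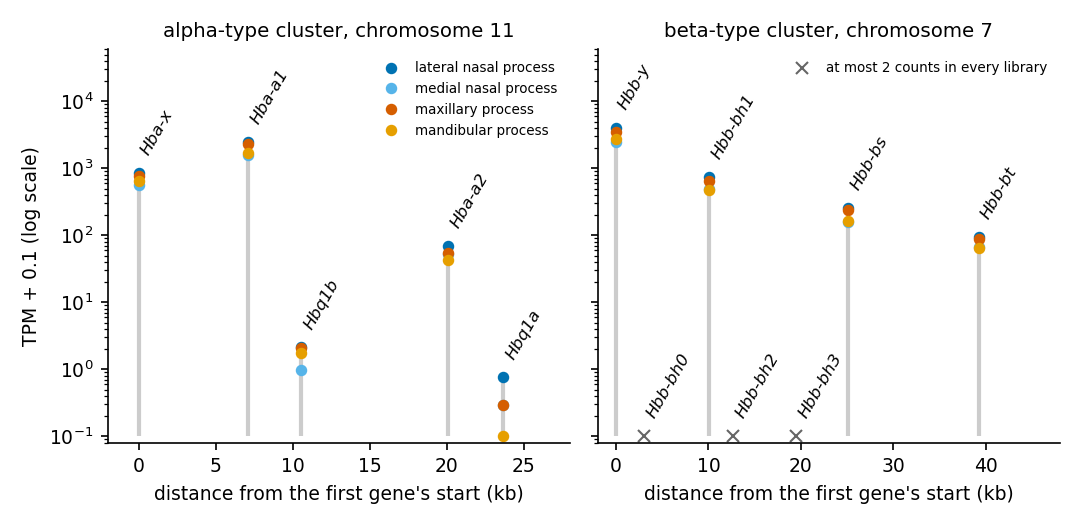
TPM plus 0.1 (log scale) of each gene of the alpha-type and beta-type clusters against its distance in kb from the start of the first gene, in the direction of transcription, 1 point per library. In the beta-type cluster the level falls from Hbb-y through Hbb-bh1 and Hbb-bs to Hbb-bt, whereas in the alpha-type cluster Hba-a1 stands above the upstream Hba-x, and crosses mark genes with at most 2 counts in every library.

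The promoters of these genes are shown to compare the elements at which erythroid regulators are known to act. The sequences are the 120 bases before the RefSeq start on GRCm38.p6, given 5′ to 3′ on the coding strand at chr7:103853208-103853327 (Hbb-y, minus), chr11:32276480-32276599 (Hba-x, plus), chr11:32296372-32296491 (Hba-a2, plus) and chr7:103827929-103828048 (Hbb-bs, minus). Capitals mark the element CACCC bound by Klf1, the CCAAT box of nuclear factor Y, the core GATAA of the Gata1 motif and a TATA-type box, which is TATAA or else ATAAA. All were searched on both strands, and the TATA-type words can overlap each other. The gene spans given above follow GENCODE, whose starts lie further upstream for Hba-x and Hbb-bs, so their stretches here fall wholly inside those spans.
Hbb-y: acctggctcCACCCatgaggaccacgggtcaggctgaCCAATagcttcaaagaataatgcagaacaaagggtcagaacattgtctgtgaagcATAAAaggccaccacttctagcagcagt
Hba-x: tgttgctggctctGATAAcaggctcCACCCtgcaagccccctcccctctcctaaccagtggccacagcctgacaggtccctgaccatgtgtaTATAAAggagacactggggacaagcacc
Hba-a2: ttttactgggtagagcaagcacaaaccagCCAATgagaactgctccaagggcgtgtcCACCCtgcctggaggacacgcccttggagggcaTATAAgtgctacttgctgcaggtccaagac
Hbb-bs: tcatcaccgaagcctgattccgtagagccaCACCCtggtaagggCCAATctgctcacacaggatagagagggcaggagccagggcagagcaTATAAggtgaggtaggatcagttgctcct

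Promoters were matched for 6 of the 7 genes, without Hbb-bh1. In the 250 bases before the start, CACCC occurred in 6 of 6 (52.0% of 32851 promoters of that length), the GATAA core in 6 of 6 (22.6%), the TATA-type box in 6 of 6 (43.0%) and the CCAAT box in 5 of 6 (33.8%), with no match in Hba-x. A match is a description and marks no bound site. The Hba-a1 and Hba-a2 promoters, shifted by a few bases, were identical over all 247 aligned bases. The listed counts of the 2 genes differ at least 33.1-fold in every library, a ratio that depends on how shared reads were divided between them. The Hbb-bs and Hbb-bt promoters were 70.0% identical over 250 aligned bases.

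The share of embryonic genes among all globin counts was nearly the same in the 4 processes. It was 69.1% (95% interval 68.8 to 69.5) in the LNP, 69.2% (68.8 to 69.6) in the MNP, 67.6% (67.3 to 68.0) in the Mx and 70.05% (69.6 to 70.5) in the Md library. The Mx value lay below the other 3 by more than counting error, at most 2.43 percentage points away, and no replicate shows how far libraries of 1 process differ. Measured in TPM, the shares were 66.2%, 65.3%, 64.6% and 66.6%, again lowest in the Mx and highest in the Md library.

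Within the alpha-type genes the Md library had the largest embryonic part. Hba-x took 35.2% (34.5 to 35.9) of the alpha-type counts there and 33.5% (32.8 to 34.2) in the MNP library, against 31.8% (31.3 to 32.3) in the LNP and 31.6% (31.1 to 32.1) in the Mx library. Within the embryonic beta-type genes, Hbb-bh1 took 14.2% (13.9 to 14.6), 15.1% (14.7 to 15.6), 14.4% (14.1 to 14.8) and 13.4% (13.01 to 13.8) in the LNP, MNP, Mx and Md libraries. The Md library thus stood at the high end for Hba-x and at the low end for Hbb-bh1, both embryonic genes. Hba-x is also the longest of the 7 transcripts in effective length, at 629.8 bases.

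**Figure D3:**
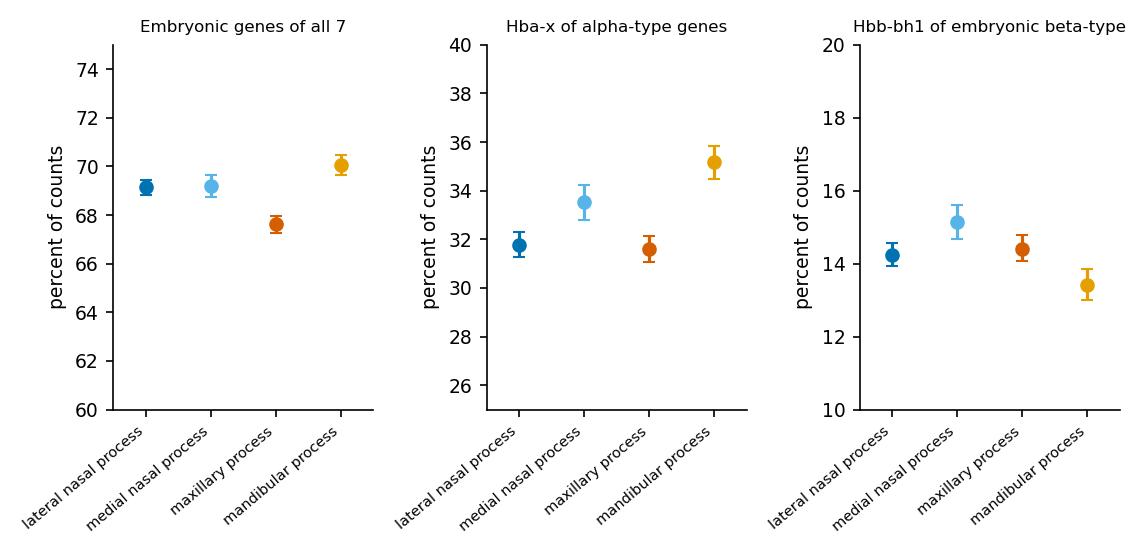
Percent of counts (y axes that do not start at 0) taken by the embryonic genes of all 7 globins, by Hba-x of the alpha-type genes and by Hbb-bh1 of the embryonic beta-type genes, 1 point per library with its 95% exact binomial interval for counting error. The embryonic share runs between 67.6 and 70.05%, and the Md library is highest for Hba-x and lowest for Hbb-bh1.

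The amount of globin RNA varied more than its composition. The 7 genes held 78783, 41552, 69117 and 45808 counts, which is 0.487%, 0.314%, 0.449% and 0.335% of all counts in the LNP, MNP, Mx and Md libraries. After scaling of the libraries this gave 4849, 3071, 4553 and 3400.4 CPM. The LNP library exceeded the MNP library 1.58-fold (1.56 to 1.598) and the Mx library exceeded the Md library 1.34-fold (1.32 to 1.35), with 95% intervals for counting error. In bulk tissue, fewer red cells and less globin RNA per red cell cannot be told apart.

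The globin genes followed the same split, Hba-a2 within its assignment error. Hbb-y had 2350.5 and 2124 CPM in the LNP and Mx libraries, against 1449.9 and 1642 CPM in the MNP and Md libraries. Hba-x had 611 and 597 CPM against 416 and 485 CPM in the same libraries, and Hbb-bh1 had 391 and 358 CPM against 259 and 255 CPM. The lower of the first 2 libraries stood above the higher of the others by 1.29-fold for Hbb-y, 1.23-fold for Hba-x and 1.38-fold for Hbb-bh1.

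The adult genes showed this gap too. Hba-a1 had 1281 and 1265 CPM in the LNP and Mx libraries, against 802 and 874 CPM in the MNP and Md libraries. Hbb-bs had 125 and 126 CPM against 78.0 and 83.1 CPM, and Hbb-bt had 59.4 and 57.2 CPM against 41.8 and 41.4 CPM. Their gaps were 1.45-fold, 1.501-fold and 1.37-fold. Hba-a2, the copy with the uncertain count, had 31.5 and 26.3 CPM against 24.2 and 20.04 CPM, with the narrowest gap, 1.08-fold. The posterior SD of its count was 10.8% in the Mx and 14.2% in the MNP library, the libraries that set this gap, so that its place in the split lies within the error of assignment. The sum of both adult alpha-type copies had 1313 and 1291 CPM in the LNP and Mx libraries, against 826 and 894 CPM in the MNP and Md libraries.

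Thus 7 of 7 genes had both LNP and Mx libraries above both others by some margin, Hba-a2 within its assignment error, as had 29.2% of the 12406 genes that reached 5 CPM in any library. A margin of 25% was reached by 5 of 7 globin genes and 1.98% of all genes, and in TPM also by 5 of 7 globin genes and 1.97% of all genes. The opposite split, with MNP and Md above, held for 0 of 7 globin genes and for 20.8% of all genes, or 4.5% by that margin. The 7 genes were measured in the same 4 libraries and are not independent of each other. The largest difference between any 2 libraries ran from 1.43-fold for Hbb-bt to 1.62-fold for Hbb-y.

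Set against the mean of the other 3 libraries, the summed globins were 0.42 higher in the LNP and 0.30 higher in the Mx library, and fell by 0.46 in the MNP and by 0.26 in the Md library, all on the log2 scale of CPM plus 0.5. In each process, 0 of 7 globin genes were 1.5-fold above or below that mean. Of all genes, 2.99% were higher and 3.46% lower in the LNP, 6.06% higher and 2.28% lower in the MNP, 1.89% higher and 4.81% lower in the Mx and 3.67% higher and 4.73% lower in the Md library. With the fold margin lowered to 25%, 6 of 7 globin genes were higher in the LNP (7.45% of all genes), 5 lower in the MNP (8.04%), 2 higher in the Mx (6.42%) and 4 lower in the Md library (10.3%), and 0 passed in the other direction. The 1.5-fold size was exceeded upward by 234 to 752 genes and downward by 283 to 597 genes per library. Without the MNP library, whose tissue name carries the abbreviation of the LNP, an alternative chosen after seeing the data, the globin differences were 0.30, 0.16 and -0.47 in the LNP, Mx and Md libraries.

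Transcript length moved with the same split and stands beside it as a measured fact. The globin genes are short, with effective lengths (the number of positions at which a fragment can start) of 390.3 to 629.8 bases. Of the 268 other protein-coding genes tested in this span, globins left out, 66.8% had both LNP and Mx libraries above both others and 7.09% by 25%. Of the 7428 genes over 2000 bases, 19.5% and 0.821% did so. Genes of the globins' length had median differences from the other 3 libraries of 0.12, -0.20, 0.18 and -0.10 (log2) in the LNP, MNP, Mx and Md libraries. Scaling to the median of these genes, a shift of 0.09, -0.15, 0.13 and -0.08 per library, left the summed globins at differences of 0.30, -0.26, 0.12 and -0.16, with the same signs and at smaller size. The part of length in the globin difference was not tested further.

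**Figure D4:**
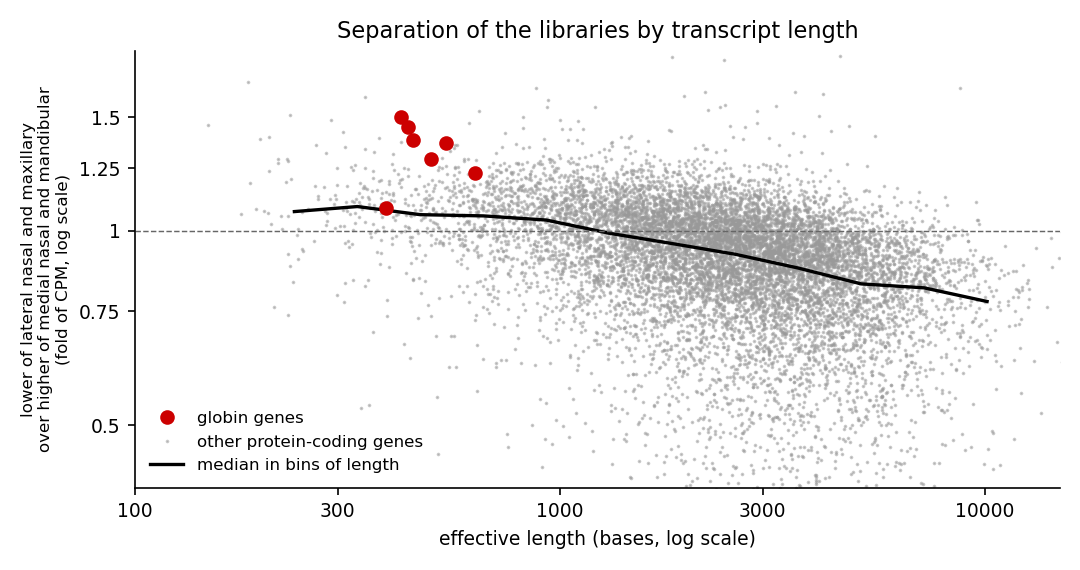
Gap between the libraries (the lower of LNP and Mx CPM over the higher of MNP and Md CPM, log scale) against effective length (bases, log scale), with globin genes as large points, other protein-coding genes as small points and their median by length as a line. The line lies above 1 for short genes and below 1 for long ones, and 6 of the 7 globin genes stand between 1.23 and 1.501-fold, above the line, while 531 genes lie beyond the axis.

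Other genes of the red cell program were read from lists of transcription factors, heme synthesis, iron uptake, membrane and skeleton, and chaperones, enzymes and maturation. Of 52 genes, 51 had an entry (Ahsp was not analysed here) and 49 reached 1 CPM in some library. The globin genes had median differences from the other 3 libraries of 0.42, -0.43, 0.28 and -0.33 (log2) in the LNP, MNP, Mx and Md libraries. The other erythroid genes had medians of 0.14, -0.09, 0.09 and -0.11 and all genes 0.01, -0.01, 0.00 and 0.00. The erythroid medians thus had the signs of the globins at smaller size in each process. Other protein-coding genes longer than the globins, up to 2000 bases (3675 genes tested), had medians of 0.09, -0.12, 0.10 and -0.07. These lie near the erythroid medians, and the erythroid genes were not divided by length. Of the 41 erythroid genes with at least 5 CPM, 19 had both LNP and Mx libraries above the others, against 29.2% of all genes. By 25%, 2 did so, Car2 and Trim10, against 1.98% of all genes. These shares of all genes also changed with transcript length, as given above.

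Most heme synthesis genes had the split of the globins. Of 10 genes, 7 had both LNP and Mx libraries above both others (29.2% of all genes), and 0 by 25% (1.98% of all genes). The list medians were 0.15, -0.12, 0.13 and -0.09 (log2) in the LNP, MNP, Mx and Md libraries. Urod, encoding uroporphyrinogen decarboxylase, had 48.1 and 45.2 CPM in the LNP and Mx libraries, against 31.8 and 37.0 CPM in the MNP and Md libraries. Fech, which inserts iron into the porphyrin ring, differed less, at 44.9 and 44.5 CPM against 40.8 and 40.2 CPM. Most of these enzymes work in all cells. Alas2, the erythroid form of the first enzyme, was picked out for that role after its values were seen, with 42.9 and 39.5 CPM against 31.8 and 31.3 CPM.

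Membrane and skeleton genes of the red cell were less uniform, with 6 of 12 above in both LNP and Mx libraries (29.2% of all genes). The list medians were 0.13, -0.12, -0.03 and -0.06 (log2) in the LNP, MNP, Mx and Md libraries. Slc4a1, encoding the anion exchanger band 3, had 92.9, 79.4, 100.1 and 87.6 CPM in the LNP, MNP, Mx and Md libraries. Epb41, encoding protein 4.1 and used by many tissues, was highest in the MNP library, with 318, 367, 333 and 324 CPM. Of the iron uptake genes, 1 of 3 with at least 5 CPM had the split, near the 29.2% of all genes. Tfrc, the transferrin receptor gene, did not, with 104, 80.1, 87.9 and 102.1 CPM. The iron uptake list had medians of 0.16, -0.16, -0.06 and -0.03 (log2) in the LNP, MNP, Mx and Md libraries.

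Chaperones, enzymes and maturation genes included Car2 and Trim10, and 5 of 8 had both LNP and Mx libraries above the others (29.2% of all genes). The list medians were 0.25, -0.15, 0.21 and -0.27 (log2) in the LNP, MNP, Mx and Md libraries. Car2, encoding carbonic anhydrase 2, had 34.5 and 35.0 CPM in the LNP and Mx libraries, against 24.7 and 26.3 CPM in the MNP and Md libraries. Prdx2, an abundant red cell peroxiredoxin gene that other cells also express, had 527 and 583 CPM against 461 and 434 CPM. Car1, carbonic anhydrase 1 of adult red cells, had no count in any library, which allows up to 0.185, 0.222, 0.198 and 0.223 CPM in the LNP, MNP, Mx and Md libraries.

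**Figure D5:**
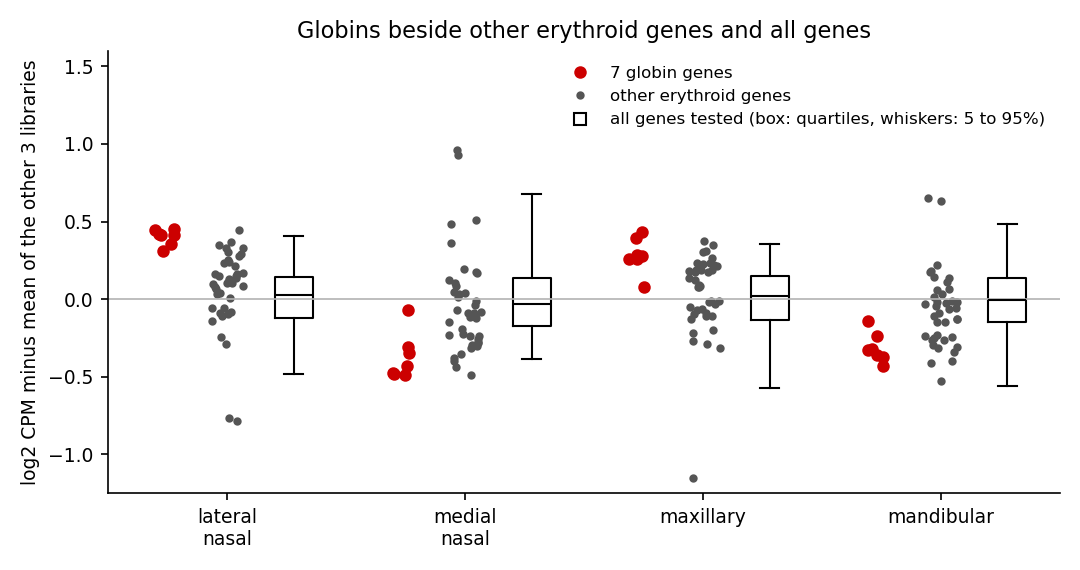
Log2 CPM of each process minus the mean of the other 3 libraries for the 7 globin genes, for the 41 other erythroid genes with at least 5 CPM and for all genes tested (boxes for quartiles, whiskers from the 5th to the 95th percentile). Globin points lie above 0 in the LNP and Mx libraries and below 0 in the others, while the erythroid points spread to both sides. Aqp1 lies outside the axis at 2.41 in the LNP and -2.22 in the Md library.

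Of 12 transcription factors that act on the globin genes, 8 reached 5 CPM. Among these 8, 0 had both LNP and Mx libraries above both others, against 29.2% of all genes. Gata1 and Klf1 lay below that minimum and are not among the 8, and so small a set allows no verdict. The medians of the whole list were -0.06, 0.13, -0.07 and 0.00 (log2) in the LNP, MNP, Mx and Md libraries. Tal1, a hematopoietic factor also expressed in endothelium, was level at 10.03, 10.9, 10.1 and 10.2 CPM in the LNP, MNP, Mx and Md libraries. Gata1, the master factor of the erythroid lineage, was low at 2.77, 1.55, 1.65 and 2.08 CPM (21 to 45 counts), and Klf1, the activator of the adult beta-globin genes, at 3.75, 4.21, 4.22 and 3.41 CPM. Myb, a factor of blood progenitors, had 10.5, 12.4, 9.95 and 12.03 CPM.

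The silencers of embryonic globin genes varied in another order. Bcl11a, which represses embryonic and fetal beta-type genes and is also a neural and mesenchymal gene, had 126, 165, 229 and 264 CPM in the LNP, MNP, Mx and Md libraries. Sox6, which represses Hbb-y in the mouse and also acts in cartilage and nerve, had 27.0, 66.6, 34.6 and 44.9 CPM. Mixed tissue does not show in which cells either gene was expressed.

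Set against the heme synthesis, membrane and chaperone lists together, the summed globin CPM was 2.68, 1.88, 2.49 and 2.16 times the summed erythroid CPM in the LNP, MNP, Mx and Md libraries. The globins thus moved further between libraries than the erythroid genes they were divided by, whose sums were 1811 and 1830.5 CPM in the LNP and Mx libraries, against 1636 and 1577 CPM in the MNP and Md libraries. Genes of these lists that other facial cells express add to each sum.

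Markers of other blood and vessel cells are given for the same libraries. The platelet and megakaryocyte markers, 7 of 8 of them at 1 CPM or more, summed over all 8 to 41.9 and 41.2 CPM in the LNP and Mx libraries, against 33.3 and 33.3 CPM in the MNP and Md libraries. Of these markers, 4 of the 4 with at least 5 CPM had the same split as the globins, as had 29.2% of all genes. Pf4, platelet factor 4, had 7.69 and 6.72 CPM against 4.73 and 4.90 CPM. Macrophage and leukocyte markers, 7 of 8 at 1 CPM or more, summed over all 8 to 24.9, 27.6, 25.7 and 22.6 CPM in the LNP, MNP, Mx and Md libraries and followed another order. Endothelial markers, 9 of 9 at 1 CPM or more, summed to 287, 305, 313 and 329 CPM and were lowest in the LNP library, where the globins were highest. No marker of these lists was at 0 in every library, and the part of blood content in the globin difference was not tested.

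Further genes of the globin family were near the floor. In the alpha-type cluster, Hbq1b, a theta globin gene, had 0.985, 0.443, 0.988 and 0.817 CPM in the LNP, MNP, Mx and Md libraries, and Hbq1a, with which it shares 204 windows of 50 bases, had at most 0.369 CPM. In the beta-type cluster, Hbb-bh2 had 2 counts in the Mx library alone, Hbb-bh0 had 1 count in the Md library alone and Hbb-bh3 had none. The pseudogene Hba-ps4 had at most 4 counts and Hba-ps3 was not analysed here. Of the globins outside the clusters, Mb (myoglobin) had at most 3 counts and Ngb (neuroglobin) at most 4. Cygb, encoding cytoglobin of fibroblast-like cells, had 3.08, 3.33, 2.17 and 5.72 CPM and passed 1.5-fold as higher in the Md and lower in the Mx library.

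The genes most like the summed globins over the 4 libraries were sought among 10398 protein-coding genes with at least 5 CPM in every library, by the Euclidean distance between log2 CPM profiles centred on their own means. With 4 points per profile this is a description. The distance takes no account of transcript length, which moved with the split of the globins as given above. The first 10 were Hist1h2br, Txn1, Rpl26, Trim10, Gcat, Ndufa7, Hist1h4k, Hist1h4a, Hist1h4j and Aldoa, at distances of 0.04 to 0.11 (log2) against a median of 0.55 over all genes. Trim10, a gene of terminal erythroid differentiation, had 8.31 and 7.38 CPM in the LNP and Mx libraries, against 5.25 and 5.49 CPM in the MNP and Md libraries, and was the single erythroid gene of the 10. The 4 histone genes belong to multigene families, and the posterior SD was 0.482 to 2.23% of their counts, against 0 to 0.870% for the other 6. Of 39 erythroid genes compared, 3 (Trim10, Urod and Car2) were among the first 100, and their median distance was 0.46.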

How the data were processed

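The authors prepared stranded total RNA libraries depleted of ribosomal RNA, aligned single-end reads to mm10 with STAR and quantified genes with RSEM 1.4.1 on GENCODE M4. Deposited values were expected counts, which divide shared reads among genes, TPM, and the posterior mean count with its SD, an error signal of that division given by the authors' software. Expected counts were rounded. CPM were scaled with TMM factors (0.985 to 1.02, edgeR 4.0.16, genes with 10 or more counts in 1 library). Log2 values had 0.5 CPM added. A gene was called at 1.5-fold from the mean of the other 3 libraries, given 5 CPM in 1 library. Symbols and coordinates came from GENCODE M21 on GRCm38, which named 42462 of 43346 entries, and promoters from RefSeq on GRCm38.p6. Entries without a symbol held 0.307 to 0.342% of counts. Number-only entries (26248) with 1 to 5 counts per library and 96 empty spike-in entries were left out. The 1.5-fold call was tested on simulated data for the LNP library (11947 genes, counting error only), with changed genes drawn from well above 5 CPM. It marked as higher 150 of 150 genes changed at least 2-fold, 0 of 50 changed by 25% and 0 of 11747 unchanged. Changed genes near that minimum and spread between embryos were not simulated. Named genes were the globin family, up to 5 genes of each erythroid list by mean CPM, 6 globin regulators, and the 10 nearest profiles. Alas2, Aqp1, Car1, Pf4 and the regional genes were named after their values were seen. Some genes of these lists are not reported here by name. The members and lists were chosen with earlier results of these data known. Biopython 1.88 aligned sequences. The precision was set by 13216161 to 16163874 counts per library, where 3 counts make 0.185 to 0.223 CPM. Intervals cover counting error only. Alternatives were DESeq2 1.42.0 size factors, no factors, TPM, posterior means, other minima, pseudocounts and folds.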

Additional observations from a re-analysis of the deposited data

How the results depend on the processing

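Of 195 alternative values, 110 stayed within counting error or within 1.5 times the main count and 85 moved. Only the summed globin differences and the erythroid medians could turn sign, and 0 of them did, while the other values were shares, ratios and gene counts. No paired analysis was possible because each process had 1 library. The summed globin differences (log2; lateral nasal, medial nasal, maxillary, mandibular) were moved by TPM to 0.46, -0.43 and 0.24 in the first 3, by total counts without factors to -0.41, 0.27 and -0.29 in the last 3, and, in alternatives chosen after seeing the data, by scaling to genes of similar length to 0.30, -0.26, 0.12 and -0.16 and by leaving out the medial nasal library to 0.30, 0.16 and -0.47 in the lateral nasal, maxillary and mandibular libraries. TPM gave embryonic shares of 66.2%, 65.3%, 64.6% and 66.6%, Hba-x shares of 24.9%, 25.3%, 24.8% and 27.2%, Hbb-bh1 shares of 15.5%, 16.5%, 15.7% and 14.6% and globin shares of 0.856%, 0.539%, 0.761% and 0.585%, all through length correction, and protein-coding genes as the denominator gave globin shares of 0.558%, 0.367%, 0.518% and 0.391%. The erythroid median became -0.047 without factors (medial nasal), 0.025 and -0.058 in TPM (maxillary, mandibular) and -0.066 at a minimum of 5 CPM (mandibular). Globins over erythroid genes became 5.24, 3.46, 4.94 and 3.94 with heme and membrane genes alone and 7.86, 5.80, 7.03 and 6.52 in TPM. Counts of genes past the fold are given higher then lower per process. With a minimum of 1 CPM they were 641 and 901, 1483 and 515, 423 and 1168, and 920 and 1070.0. With 20 CPM they were 129 and 166, 280.0 and 138, 118 and 209, and 206 and 197. Without a minimum they were 805 and 1079, 1875 and 639, 563 and 1373, and 1186 and 1261. At 2-fold they were 136 and 165, 346 and 125, 109 and 209, and 206 and 277. At 25% above or below they were 924 and 1177, 1557 and 998, 796 and 1379, and 1202 and 1276. Depth limits Gata1 and the theta globin genes, with 45 counts or fewer. The split of Hba-a1 and Hba-a2 was made on GENCODE M4, whereas windows were counted in GENCODE M21 transcripts. There, the genes had 211 and 66 windows of their own, of which 50 in each gene span the differing base. A further 161 of Hba-a1 lie in its longer annotated start.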
